A study of Mus musculus with 41 samples.

Results

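Liver tumours labelled CD8kMup were compared with liver tumours labelled MupHe across all genes measured. The 7 libraries were chosen by their labels and column names alone, 3 of CD8kMup HCC and 4 of MupHe HCC, of 41 libraries in the series. The series holds polyA RNA-seq of livers and liver tumours (hepatocellular carcinoma, HCC) of mice fed a high-fat diet (HFD), and of livers in groups marked NC, whose disease stage is given as healthy. The groups used here are CD8kMup HCC (n = 3, HFD), IgAkMup HCC (n = 4, HFD) and MupHe HCC (n = 4, HFD), and from livers without tumours CD8kMup NC, IgAkMup NC, MupHe NC and B6 NC (n = 3 each). All animals were male C57BL/6 mice, and ages are not given in the labels. The labels do not spell out the genotype names, so the names are kept as given. The names CD8kMup and MupHe share the Mup element and differ in CD8k and He, and no label says which allele or transgene each stands for. The 11 tumour libraries carry the same column tag, SS H, which the labels do not explain. Livers labelled MupHe NASH (n = 3, HFD, steatohepatitis) are given for orientation and carry another tag, Tri N, so no test sets them against tumours here. Livers labelled IgAkMup NASH, IgAkCLM HFD control and B6 HFD control (n = 3 each, HFD) enter only the comparison of spread and a fit of all 11 groups, and the disease stage of the controls is given as healthy fatty liver. No label says that libraries of a group came from separate animals, so p-values measure the spread between these samples only.

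The CD8 coreceptor marks cytotoxic T cells, which recognise peptides on MHC class I molecules and kill the cells that show them. Hepatocytes differ along the liver lobule. Those near the central vein carry out xenobiotic metabolism through cytochrome P450 enzymes under Wnt signalling, and those near the portal vein carry out urea synthesis and gluconeogenesis. Liver tumours of mice often lose part of this programme and gain transcripts of fetal liver. Kupffer cells are the resident macrophages of the liver, and major urinary proteins (MUPs) are lipocalins that male mouse liver secretes in bulk under growth hormone control.

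Values are regularized log2 values as deposited, so a difference of 1 is a factor of 2. Differences are CD8kMup HCC minus MupHe HCC with their standard errors (SE) from limma, unless another comparison is named. Shrinkage in such values can make the differences of genes with few reads look too small, and the depth of the libraries is unknown. Hepatocyte transcripts were abundant in every tumour library. Albumin, Alb, averaged 18.89 ± 0.18 in CD8kMup HCC and 19.07 ± 0.56 in MupHe HCC (SD, n = 3 and n = 4). The fetal liver transcript Afp, a marker of liver tumours, averaged 4.72 ± 0.73 in CD8kMup HCC and 6.09 ± 1.88 in MupHe HCC, against a mean of 3.71 in livers labelled MupHe NASH. Afp of CD8kMup HCC 8 (3.89) and of MupHe HCC 7 (3.76) was close to that liver mean.

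Cd8a and Cd8b1, which encode the CD8 coreceptor that the name CD8kMup holds, were looked at first, with Plau, the urokinase gene. Plau was added because mice known as MUP-uPA carry urokinase under a Mup promoter, and no label says that Mup stands for that transgene here. Cd8a, the alpha chain of the CD8 coreceptor, lies on chromosome 6 at 71373427 to 71379173 (GRCm38). It stood at 3.50, 3.78 and 4.16 in CD8kMup HCC, against 3.66, 4.08, 3.77 and 4.22 in MupHe HCC. The groups overlapped, and an exact two-sided permutation test over the 7 libraries gave p = 0.629. Cd8b1, the beta chain, stood at 1.86, 1.76 and 1.85 in CD8kMup HCC, against 2.37, 2.76, 2.18 and 2.31 in MupHe HCC. All 3 CD8kMup values lay below all 4 MupHe values and below the 4 IgAkMup HCC values, which ran from 2.30 to 3.20. The difference of -0.58 had an exact permutation p of 0.0286, the smallest that 3 libraries against 4 allow, and an adjusted p of 0.0857 over the 3 genes. Cd8b1 was under the filter on low values and did not enter the fit across genes. Plau stood at 7.18, 7.02 and 6.11 in CD8kMup HCC, against 5.61, 6.29, 9.07 and 5.86 in MupHe HCC (exact permutation p = 1). In NC livers the exact permutation p was 0.3 for Cd8a, 0.2 for Cd8b1 and 1 for Plau, where 3 libraries against 3 cannot go below 0.1. The Cd8a mRNA level did not separate the groups, and "labelled CD8kMup" is meant throughout. Whether the label refers to a change that leaves Cd8a mRNA in place cannot be told from these values. In bulk tissue, fewer cells of a type and less RNA per cell cannot be told apart.

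The 30 kept genes that lie nearest to Cd8a (15 on each side, from 59208870 to 72380468) were looked up to see whether the locus carries other differences. None had an adjusted p under 0.05 in limma in tumours or in NC livers, and the median difference in tumours was 0.09. Smyd1, a muscle methyltransferase gene, was the 1 neighbour with an unadjusted p under 0.05 in tumours, at 0.63 ± 0.23 (SE), or 0.40 without MupHe HCC 3, so 1 of 30 neighbours stands beside 5.3% of all genes. In NC livers 6 of the 30 neighbours had an unadjusted p under 0.05, against 8.8% of all genes there.

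The CD8kMup tumours were more alike than the MupHe tumours. The correlation between libraries across genes was 0.981 to 0.989 within CD8kMup HCC and 0.932 to 0.967 within MupHe HCC. The median standard deviation of a gene between libraries was 0.158 in CD8kMup HCC, 0.263 in IgAkMup HCC and 0.299 in MupHe HCC, and it was 0.109 to 0.156 in the groups of livers without tumours. It was smaller in CD8kMup HCC than in MupHe HCC for 10169 of 12434 genes (81.8%), and for 73.1% when MupHe HCC 3 was left out. A standard deviation from 3 libraries is imprecise, and this difference in spread was not tested. On the first principal component of the tumour libraries, which held 36.9% of the variance, CD8kMup HCC lay at -18.3, -23.0 and -26.7 and MupHe HCC at -23.5, 42.9, -30.1 and -17.1. MupHe HCC 3, at 42.9, lay with IgAkMup HCC 5 (44.1) and IgAkMup HCC 9 (49.1). Its closest library was IgAkMup HCC 9 (r = 0.979), and MupHe HCC 2 and 4 were closest to CD8kMup libraries. Where leaving out MupHe HCC 3 moved a list median above 0.1 in size, or the difference of a named gene, by over 1.5 times, both values are given.

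**Figure D1:**
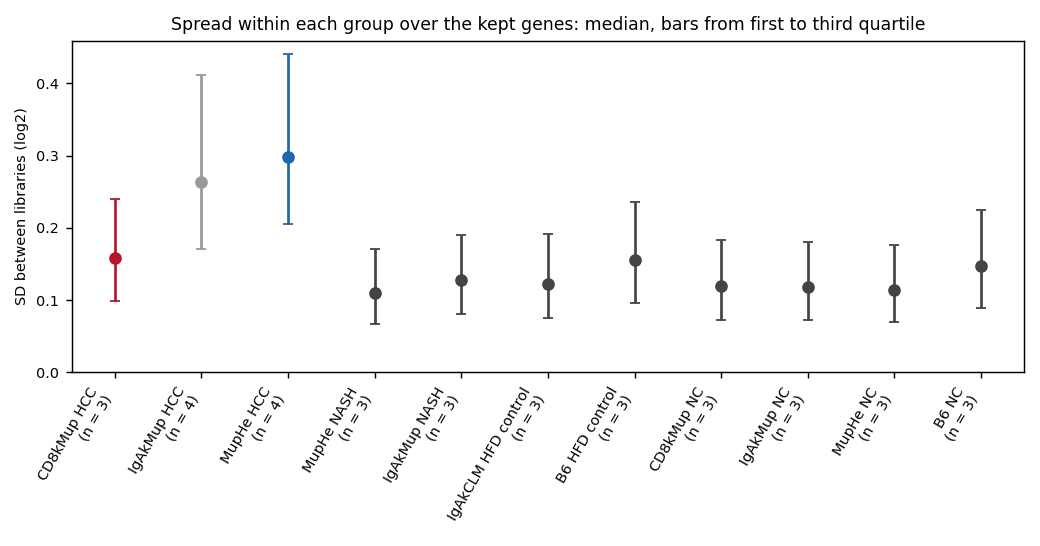
Median standard deviation between libraries of a group over the kept genes (log2), with bars from the first to the third quartile, for the 11 groups with matched columns and their n. CD8kMup HCC, at 0.158, sits near the groups of livers without tumours, and MupHe HCC, at 0.299, is the highest.

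Across all genes, no gene passed the test between CD8kMup HCC and MupHe HCC. Of 12434 genes kept at a mean of at least 3, 0 had an adjusted p under 0.05 in limma fitted on the 11 tumour libraries, and the smallest adjusted p was 0.304. An unadjusted p under 0.05 was found for 659 genes (5.3%), 311 higher (2.5%) and 348 lower (2.8%) in CD8kMup HCC. The groups did not overlap for 861 genes (6.92%), 418 higher (3.36%) and 443 lower (3.56%). Without MupHe HCC 3 these were 1700 genes (13.7%), 800 higher (6.43%) and 900 lower (7.24%). Leaving out any library can only keep or raise such a count, so the direction of this change was fixed in advance. The share that arises by chance is also larger for 3 libraries against 3 than for 3 against 4. When livers without tumours shared the estimate of spread in a fit of all 11 groups, 163 of 12337 genes (1.32%) had an adjusted p under 0.05, 87 higher (0.705%) and 76 lower (0.616%). All 163 had an unadjusted p under 0.05 in the tumour fit, and 137 of them did not overlap between the groups. Both fits take their differences from the same tumour values, so these counts describe the 163 and are no further evidence. The median SE of the difference was 0.208 in the tumour fit and 0.157 in the fit of all groups. Because those livers spread less, the tumour fit is the one reported, and the genes below are described by their values.

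**Figure D2:**
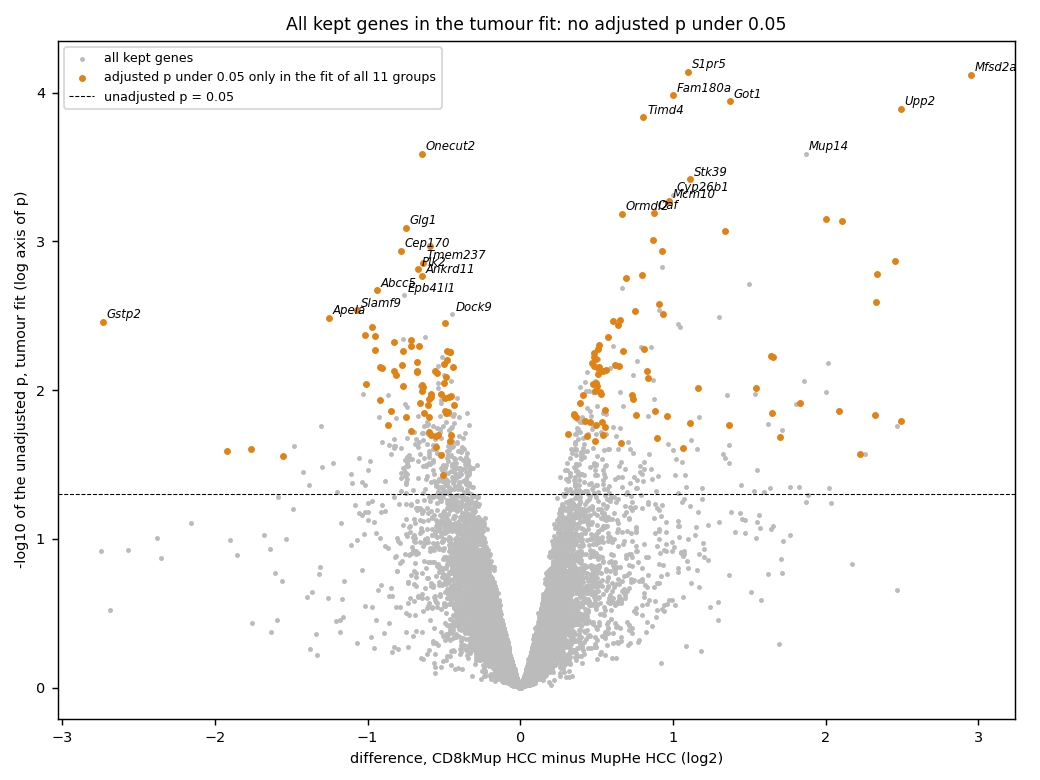
Each of the 12434 kept genes by its difference, CD8kMup HCC minus MupHe HCC (log2, horizontal), and by -log10 of its unadjusted p in the tumour fit (vertical). Orange points are the 163 genes with an adjusted p under 0.05 in the fit of all 11 groups, and named genes are the 12 of smallest p in each direction, with adjusted p from 0.304 upward.

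The 12 genes of smallest p that stood higher in CD8kMup HCC differed by 0.67 to 2.96, with adjusted p from 0.304 to 0.609 in limma. All 12 had every CD8kMup value above every MupHe value, and 10 had an adjusted p under 0.05 in the fit of all groups. The rule chose them by their p, so these counts describe them and are no further evidence. S1pr5, a receptor for sphingosine-1-phosphate (chromosome 9, 21242912 to 21248443), stood at 5.23, 5.32 and 5.02 in CD8kMup HCC, against 4.41, 3.93, 4.01 and 4.02 in MupHe HCC. Its difference was 1.10 ± 0.18. Mfsd2a, a transporter of lysophosphatidylcholine that carries polyunsaturated fatty acids (chromosome 4, 122946850 to 122961188), stood at 8.18, 8.63 and 8.73 in CD8kMup HCC, against 6.55, 4.38, 6.37 and 4.93 in MupHe HCC. Its difference of 2.96 ± 0.49 is the largest of the 12. Got1, the cytosolic aspartate aminotransferase, stood at 10.19, 10.37 and 10.03 in CD8kMup HCC, against 9.27, 8.27, 8.98 and 8.77 in MupHe HCC. Upp2, a uridine phosphorylase of liver (chromosome 2, 58567298 to 58792971), stood at 9.27, 9.60 and 9.43 in CD8kMup HCC, against 7.24, 5.66, 7.32 and 7.54 in MupHe HCC. Its difference was 2.49 ± 0.44, and 2.07 without MupHe HCC 3. Levels in MupHe NASH livers were nearer to CD8kMup HCC for Got1 (10.08) and Upp2 (9.45), and above both tumour groups for Mfsd2a (9.71). These liver levels were nearer to MupHe HCC for Fam180a (3.81), Stk39 (5.045) and Ormdl2 (8.33), and nearer to CD8kMup HCC for the rest of the 12. The other members were Fam180a (1.00), Timd4 (0.81), Mup14 (1.87), Stk39 (1.11), a kinase that regulates ion cotransporters, Cyp26b1 (1.00), which breaks down retinoic acid, Mcm10 (0.97), a factor of DNA replication, Oaf (0.88), and Ormdl2 (0.67), a regulator of sphingolipid synthesis. Cyp26b1 was nearly flat in MupHe HCC, at 3.79 to 3.86, and spread from 4.41 to 5.24 in CD8kMup HCC.

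The 12 genes of smallest p that stood lower in CD8kMup HCC differed by -0.45 to -2.73, with adjusted p from 0.402 to 0.886. None of the 12 overlapped between the groups, and 10 had an adjusted p under 0.05 in the fit of all groups. Onecut2, a liver transcription factor, stood at 8.33, 8.40 and 8.49 in CD8kMup HCC, against 9.17, 9.01, 8.88 and 9.14 in MupHe HCC. Its difference was -0.64 ± 0.12. Gstp2, a glutathione S-transferase of the pi class (chromosome 19, 4040285 to 4046023), stood at 6.87, 4.98 and 6.32 in CD8kMup HCC, against 8.84, 8.94, 8.20 and 9.17 in MupHe HCC. The difference of -2.73 ± 0.74 is the largest of the 12, and its value in MupHe NASH livers was 3.93, below both tumour groups. Gstp2 has a near-identical neighbour, Gstp1, so its level is uncertain. Apela, a peptide hormone that signals through the apelin receptor, stood at 7.53, 6.77 and 7.81 in CD8kMup HCC, against 8.79, 9.18, 8.003 and 8.51 in MupHe HCC, and at 3.24 in MupHe NASH livers. Slamf9, a SLAM family receptor, stood at 5.51, 5.14 and 4.94 in CD8kMup HCC, against 6.31, 6.55, 5.52 and 6.70 in MupHe HCC. For Gstp2, Apela and Slamf9 both tumour groups were above the NASH livers, with CD8kMup HCC the nearer to them. The rest were Glg1 (-0.75), a Golgi glycoprotein, Cep170 (-0.78), of the centrosome, Tmem237 (-0.64), of the cilium base, Plk2 (-0.67), a polo-like kinase, Ankrd11 (-0.65), a chromatin regulator, Abcc5 (-0.94), an exporter, Epb41l1 (-0.76), of the membrane skeleton, and Dock9 (-0.45), an exchange factor for Cdc42. MupHe NASH livers lay nearer to MupHe HCC for Onecut2 (9.69), Glg1 (7.92), Ankrd11 (8.82) and Dock9 (6.99). They lay nearer to CD8kMup HCC for Cep170, Tmem237, Plk2, Abcc5 and Epb41l1.

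**Figure D3:**
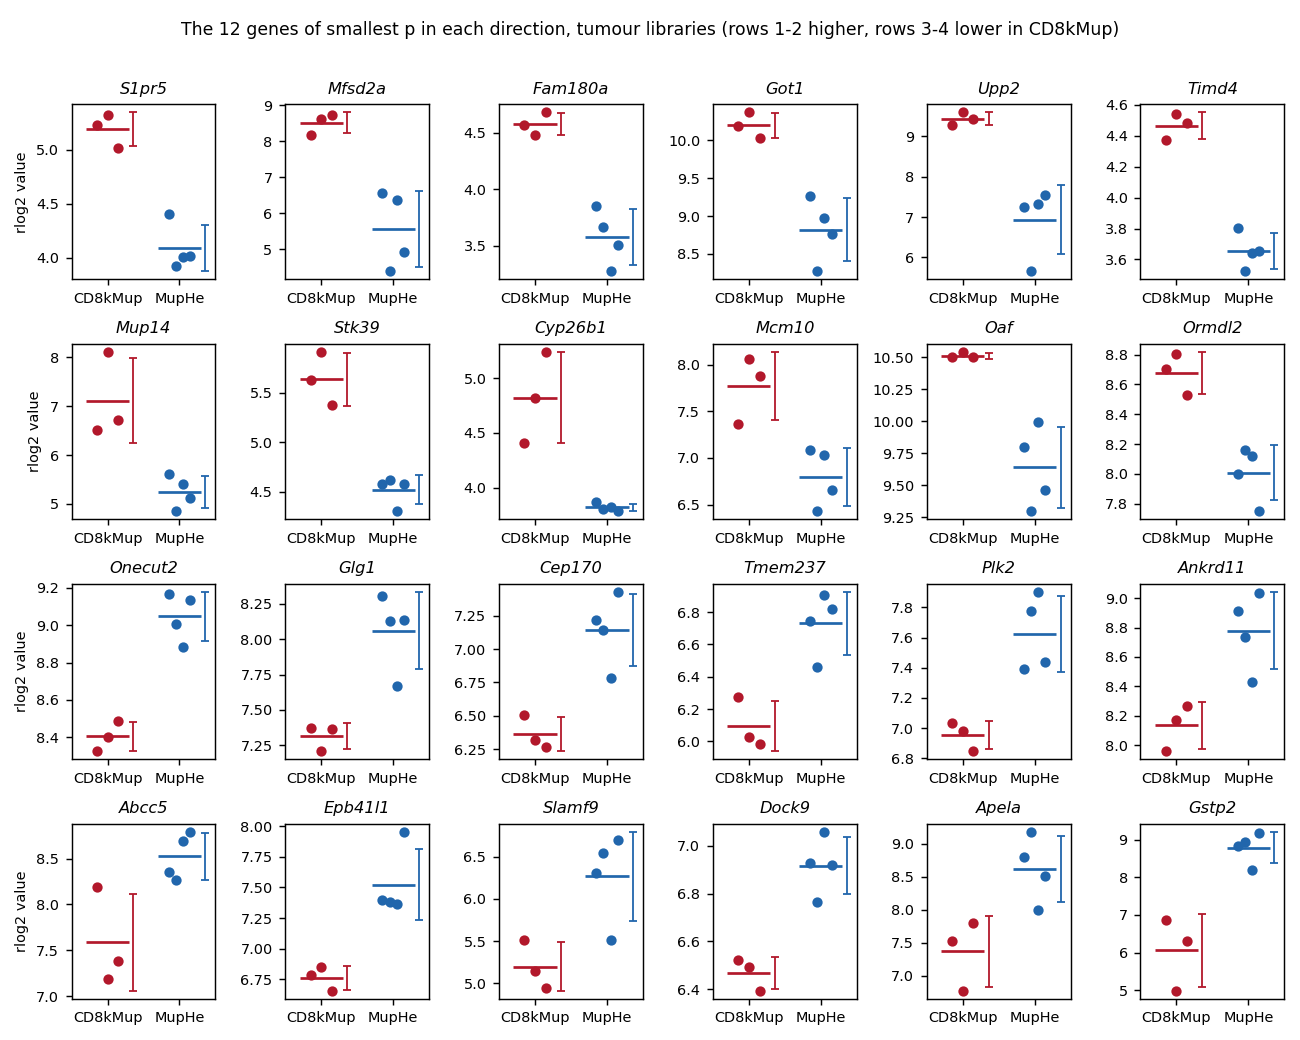
Values in each CD8kMup HCC library (red, n = 3) and each MupHe HCC library (blue, n = 4) for the 12 genes of smallest p in each direction, with the mean as a line and the SD as a bar (rlog2 value). The groups do not overlap for any of the 24 genes, none of which has an adjusted p under 0.05 in the tumour fit.

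Of 21 major urinary protein genes, 15 passed the filter on low values, and all 15 stood higher in CD8kMup HCC. Over these 15 the median difference was 1.5, against -0.02 over all kept genes. Of these 15, 12 had an unadjusted p under 0.05 (2.5% of all genes were higher at that p), 4 did not overlap between the groups (3.36% of all genes were higher without overlap) and none had an adjusted p under 0.05. The other 6 stood under the filter, at -2.32 to 3.09 in CD8kMup HCC and -2.32 to 2.78 in MupHe HCC as group means. Among them Mup10 averaged 0.089 in CD8kMup HCC and 0.108 in MupHe HCC, and Mup19 averaged -2.315 in CD8kMup HCC and -2.317 in MupHe HCC. The family is near-identical in sequence, so reads may be shared and the 15 are not 15 separate observations. The 300-base promoters of 3 members (RefSeq, GRCm38.p6, ending just after the transcript start) are shown because the 15 genes stood on the same side together, with the longest run that the 3 share, 22 bases, in capitals. These windows lie mostly upstream of the transcripts, so they do not show whether reads are shared. They lie on chromosome 4, at 61303949 to 61304248 on the minus strand for Mup14, 60003231 to 60003530 on the plus strand for Mup6 and 62087268 to 62087567 on the minus strand for Mup3.
Mup14: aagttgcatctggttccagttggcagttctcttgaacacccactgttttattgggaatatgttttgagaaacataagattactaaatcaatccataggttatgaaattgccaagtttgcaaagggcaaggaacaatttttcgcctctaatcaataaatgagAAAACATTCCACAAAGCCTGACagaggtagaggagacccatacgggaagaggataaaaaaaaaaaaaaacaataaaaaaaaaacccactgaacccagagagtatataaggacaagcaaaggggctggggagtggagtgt
Mup6: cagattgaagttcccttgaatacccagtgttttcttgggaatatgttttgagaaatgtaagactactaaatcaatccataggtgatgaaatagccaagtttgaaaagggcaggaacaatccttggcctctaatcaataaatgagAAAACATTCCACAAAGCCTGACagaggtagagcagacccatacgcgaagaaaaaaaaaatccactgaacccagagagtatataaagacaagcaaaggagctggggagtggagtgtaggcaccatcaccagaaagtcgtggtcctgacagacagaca
Mup3: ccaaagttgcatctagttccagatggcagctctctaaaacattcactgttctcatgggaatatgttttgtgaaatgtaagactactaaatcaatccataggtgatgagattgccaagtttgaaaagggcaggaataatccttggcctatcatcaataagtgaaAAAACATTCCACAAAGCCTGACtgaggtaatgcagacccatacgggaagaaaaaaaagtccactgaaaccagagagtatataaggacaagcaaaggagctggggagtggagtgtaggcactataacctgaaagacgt
Promoters of 11 of the 15 kept members were found in the RefSeq table. Of these 11, 8 hold that run, the 3 shown by choice, since the run was taken from them. Of all 32851 promoters in the table, 10 hold it (0.0304%). GCCAAGTTTG, 10 bases, was picked as the longest run that all 11 share, so its presence in all 11 is no finding. It is in 28 of 32851 promoters (0.0852%). TATATAA, letters of a TATA box, is in 10 of the 11 and in 3.24% of all. Both strands were searched. A match is a description of these windows and says nothing about which factor acts there.

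Mup14 stood at 6.51, 8.11 and 6.72 in CD8kMup HCC, against 5.61, 4.85, 5.40 and 5.11 in MupHe HCC. Mup6 stood at 5.10, 6.00 and 6.29 in CD8kMup HCC, against 4.90, 3.999, 4.81 and 4.11 in MupHe HCC. Mup9 stood at 4.06, 6.11 and 5.68 in CD8kMup HCC, against 3.96, 3.65, 3.86 and 3.70 in MupHe HCC. For Mup9 the CD8kMup HCC 3 value is just above the highest MupHe value, and the other two CD8kMup values are well above it. Mup3 stood at 10.09, 13.70 and 14.13 in CD8kMup HCC, against 11.27, 9.77, 10.24 and 9.99 in MupHe HCC, so the groups overlapped. Over the 15 members, CD8kMup HCC 3 (-0.28) was near the MupHe libraries (-0.996 to -0.26), and CD8kMup HCC 4 (1.57) and 8 (0.99) were above all of them, as mean deviations from the 7-library mean. Without CD8kMup HCC 3, 5 genes had an adjusted p under 0.05 in limma, and all were MUP genes: Mup15, Mup16, Mup2, Mup3 and Mup9, with differences from 1.45 to 3.60. Without MupHe HCC 3 the median difference was 1.44.

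In NC livers the same 15 genes lay the other way. The differences of the 15 genes there, CD8kMup NC minus MupHe NC, were all negative, from -3.35 to -0.35, with a median of -2.07. In NC livers 2022 of 12279 genes (16.5%) did not overlap, 1072 higher (8.73%). For 14 of the 15 every CD8kMup NC value lay below every MupHe NC value, against 950 (7.74%) of all 12279 genes tested there that stood lower without overlap. None had an adjusted p under 0.05 in NC livers. Mup14 stood at 12.45, 11.35 and 10.53 in CD8kMup NC, against 13.41, 13.41 and 13.06 in MupHe NC. Its difference of differences, tumours minus NC livers, was 3.71, with an adjusted p of 0.250 in limma. As a mean deviation over the family, MupHe NC ran from 0.84 to 1.06, above every other NC library. CD8kMup NC stood at 0.16, -1.26 and -1.75. In IgAkMup NC and B6 NC the family also varied between libraries, from -0.99 to 0.03 and from -0.78 to 0.69. CD8kMup NC 1 thus lay above every IgAkMup NC library. None of the 12355 genes tested for a difference between tumours and NC livers had an adjusted p under 0.05, and 808 (6.54%) had an unadjusted p under 0.05, 366 higher (2.96%) and 442 lower (3.58%).

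**Figure D4:**
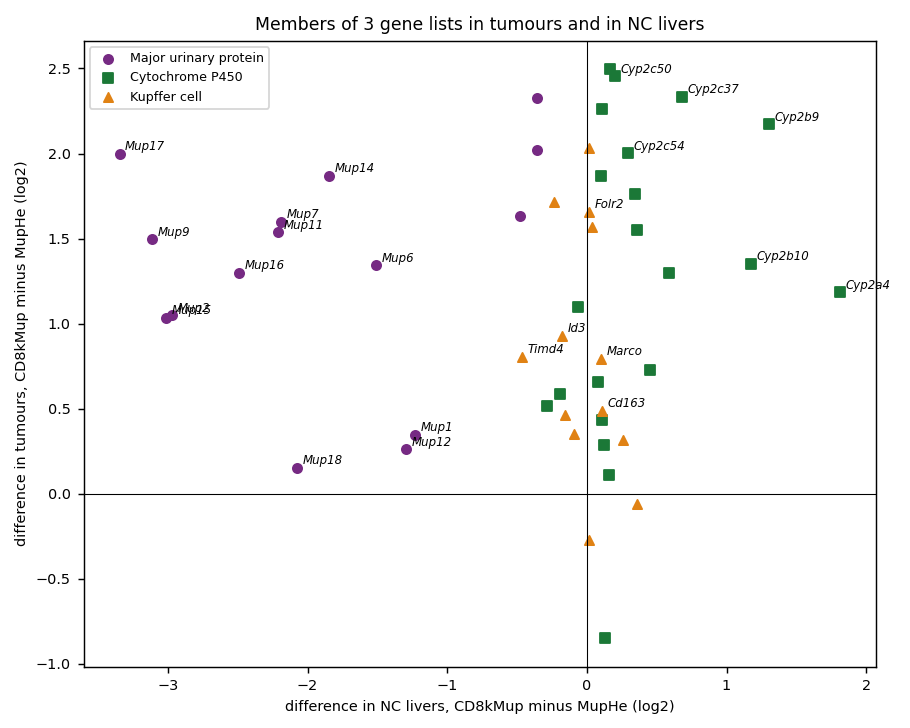
Members of 3 gene lists by their difference in NC livers (horizontal) and in tumours (vertical), both CD8kMup minus MupHe (log2). The 15 MUP genes lie between -3.35 and -0.35 in NC livers and above 0 in tumours, the P450 genes lie above 0 in tumours except Cyp1a1, and Kupffer cell genes lie between -0.46 and 0.36 in NC livers.

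Cytochrome P450 genes stood higher in CD8kMup HCC in 20 of 21 kept members, with a median difference of 1.30. None had an adjusted p under 0.05, and 3 members did not overlap between the groups, against 3.36% of all genes that stood higher without overlap. Cyp2c54 stood at 7.84, 8.43 and 8.30 in CD8kMup HCC, against 7.51, 5.89, 5.75 and 5.61 in MupHe HCC. Its difference was 2.00 ± 0.43, and the highest MupHe library, MupHe HCC 2, was apart from the other 3. Cyp2c50 stood at 9.26, 10.36 and 10.97 in CD8kMup HCC, against 9.22, 7.18, 7.13 and 7.45 in MupHe HCC, with MupHe HCC 2 again the highest. Cyp2c37 and Cyp2b10 differed by 2.33 and 1.35 with overlap. Cyp2c members are near-identical, so single members are uncertain. The list rests partly on MupHe HCC 3, whose mean deviation of -2.03 was the lowest, and the median difference without it was 0.69. The groups still overlapped without it, with CD8kMup HCC at -0.08, 0.92 and 1.31 and the remaining MupHe libraries between -0.63 and 0.54.

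Genes of the central vein zone and Wnt targets gave a similar pattern, with 22 of 23 kept members higher in CD8kMup HCC and a median difference of 0.91, or 0.60 without MupHe HCC 3. Of these 23, 3 did not overlap (3.36% of all genes stood higher without overlap). Oat, ornithine aminotransferase, stood at 10.14, 11.20 and 11.44 in CD8kMup HCC, against 10.18, 8.13, 8.68 and 8.28 in MupHe HCC. Lhpp, a phosphatase, differed by 1.64 ± 0.48 and Cyp2e1, which metabolises ethanol, by 2.26 ± 0.89, and both overlapped. The lists share Cyp2c37, Cyp2e1, Cyp2a5 and Cyp1a2. Periportal genes had a median difference of 0.61 over 15 members, which was -0.02 without MupHe HCC 3. Hepatocyte secreted proteins, 18 of 18 kept, had mean deviations of 0.08 to 0.09 in CD8kMup HCC and of -0.51 to 0.31 in MupHe HCC. The part of that marker list in the P450 and zonation values was not tested.

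**Figure D5:**
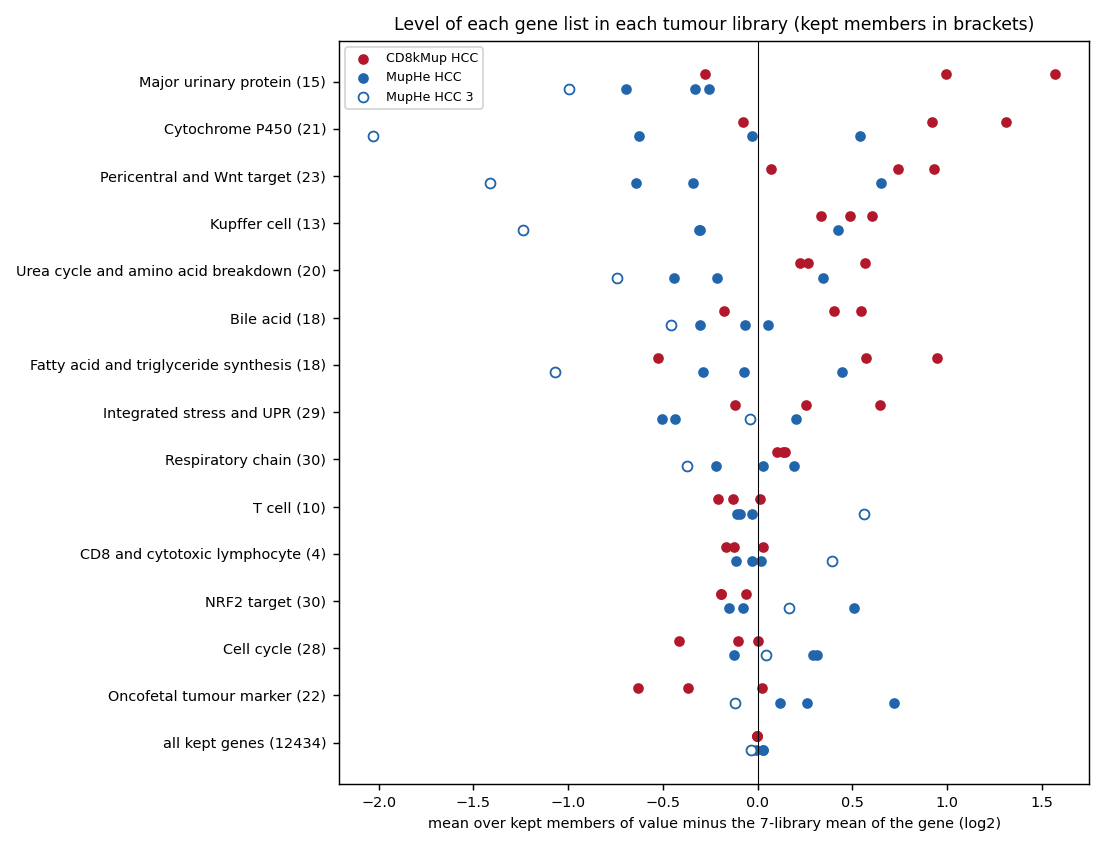
Mean over the kept members of each list of the value minus the 7-library mean of the gene (log2), for each CD8kMup HCC library (red) and each MupHe HCC library (blue, with MupHe HCC 3 as an open circle). MUP, P450 and pericentral lists are lowest in MupHe HCC 3, at -0.996, -2.03 and -1.41, and CD8kMup HCC 3 lies nearer the MupHe libraries than the other CD8kMup libraries for the MUP list.

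Kupffer cell markers stood higher in CD8kMup HCC in 11 of 13 kept members, with a median difference of 0.79, or 0.72 without MupHe HCC 3. Of these 13, 5 did not overlap, with MupHe HCC 3 and without it, against 3.36% of all genes that stood higher without overlap with it and 6.43% without it. Timd4, a phosphatidylserine receptor of resident macrophages, stood at 4.37, 4.54 and 4.48 in CD8kMup HCC, against 3.81, 3.52, 3.64 and 3.65 in MupHe HCC, with a difference of 0.81 ± 0.14. Folr2, a folate receptor of resident macrophages, stood at 7.11, 6.91 and 6.97 in CD8kMup HCC, against 6.499, 4.31, 5.47 and 5.07 in MupHe HCC. Marco, a scavenger receptor, and Id3, a transcription regulator needed for Kupffer cells, differed by 0.79 and 0.93 without overlap. Clec4f, a Kupffer cell lectin, stood at 10.26, 9.99 and 10.20 in CD8kMup HCC, against 9.92, 6.01, 8.40 and 8.15 in MupHe HCC. In NASH livers of MupHe mice these genes were higher still for Timd4 (5.89) and Marco (7.36), and close to CD8kMup HCC for Folr2 (6.86) and Clec4f (10.13). Of the members with overlap, Cd163 differed by 0.49 and C6 by 0.46, or -0.16 for C6 without MupHe HCC 3. Vsig4 and Cd5l differed by 1.57 and 1.72, or 1.03 and 0.89 without MupHe HCC 3. Cdh5 and Slc40a1 stood lower, at -0.27 and -0.06, or -0.15 and -0.41 without MupHe HCC 3. Mean deviations of the list were 0.33 to 0.60 in CD8kMup HCC and -1.24 to 0.42 in MupHe HCC, so MupHe HCC 2 lay within the CD8kMup range. In NC livers the median difference of the list was 0.02. Timd4 lay the other way there, at -0.46, with an adjusted p of 0.401 in limma. It stood at 5.50, 5.68 and 5.63 in CD8kMup NC, against 6.18, 5.79 and 6.23 in MupHe NC, without overlap. Recruited and lipid-associated macrophage markers had a median of -0.01 over 17 members, and only Cx3cr1, a chemokine receptor, did not overlap: it stood at 6.39, 6.34 and 6.11 in CD8kMup HCC, against 6.59, 8.18, 6.61 and 6.67 in MupHe HCC. Its difference was -0.73 ± 0.53, and -0.34 without MupHe HCC 3. Itgax, Itgam and Cd63 differed by -0.43, -0.36 and -0.36 with overlap, and by -0.18, -0.11 and -0.27 without MupHe HCC 3. Of the 17 members, 8 stood higher and 9 lower in CD8kMup HCC. The largest difference among the higher ones was that of Spp1, at 0.63 with overlap, or 1.06 without MupHe HCC 3.

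Other metabolic lists differed in direction and in how far they rested on MupHe HCC 3. Cholesterol synthesis genes stood lower in 16 of 23 members, with a median of -0.15, or -0.24 without MupHe HCC 3. Fatty acid oxidation and PPAR alpha target genes had a median of 0.20, or 0.025 without it. Lipid droplet genes had a median of 0.37, or 0.0081 without it, and glycolysis genes had a median of 0.04. Urea cycle and amino acid breakdown genes were higher in 18 of 20 members, with a median of 0.59 (0.48 without MupHe HCC 3). Of these 20, 3 did not overlap, against 3.36% of all genes that stood higher without overlap. Among the 3 was Hpd, of tyrosine breakdown, at 12.34, 12.44 and 12.66 in CD8kMup HCC, against 11.38, 9.29, 12.11 and 11.04 in MupHe HCC. Its difference of 1.53 ± 0.69 was 0.97 without MupHe HCC 3. Ass1, which makes argininosuccinate, and Hgd, of tyrosine breakdown, differed by 0.76 and 0.48 with overlap. Fatty acid and triglyceride synthesis genes had a median of 0.43 (0.21 without MupHe HCC 3), and Lpin1, a phosphatidate phosphatase, was the 1 that did not overlap, at 1.02 ± 0.41. Elovl3, a fatty acid elongase, differed by 2.33 ± 0.60, and Elovl5 and Thrsp by 0.91 and 1.51, with overlap. Without MupHe HCC 3 Elovl5 differed by 0.51 and Thrsp by 0.57. Bile acid genes had a median of 0.45, with 12 of 18 members higher and 6 lower in CD8kMup HCC. Without overlap, 1 of the 18 stood higher and 1 lower, against 3.36% and 3.56% of all genes. The higher one was Slc27a5, which activates bile acids, at 1.06 ± 0.43. Slc10a1, the main bile acid importer, Baat and Hsd3b7 differed by 1.70, 0.90 and 0.70 with overlap, and Hsd3b7 by 0.39 without MupHe HCC 3.

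The integrated stress and unfolded protein response list was higher in 25 of 29 members, with a median difference of 0.38, and 0.48 without MupHe HCC 3. Of these 29, 3 did not overlap (3.36% of all genes stood higher without overlap). Mean deviations of the list overlapped, at 0.25, 0.64 and -0.12 in CD8kMup HCC, against -0.50 to 0.20 in MupHe HCC. Atf3, a stress-induced transcription factor, stood at 8.66, 9.56 and 7.89 in CD8kMup HCC, against 6.51, 6.71, 7.87 and 7.18 in MupHe HCC. Ddit4, an inhibitor of mTORC1, stood at 7.62, 7.95 and 7.57 in CD8kMup HCC, against 6.84, 7.28, 6.94 and 7.07 in MupHe HCC. Herpud1 and Ddit3 differed by 0.87 ± 0.29 and 1.34 ± 0.53, with MupHe HCC 4 within the CD8kMup range for both and MupHe HCC 3 for Ddit3. Respiratory chain genes were higher in 26 of 30 members, with a median of 0.22, or 0.13 without MupHe HCC 3, and 5 did not overlap (3.36% of all genes stood higher without overlap). Cox5a, a subunit of complex IV, stood at 10.18, 10.54 and 10.33 in CD8kMup HCC, against 9.95, 9.56, 9.90 and 9.57 in MupHe HCC. Sdhd, of complex II, and Cox7a2, of complex IV, differed by 0.56 and 0.36 without overlap, and Uqcrc1, of complex III, by 0.39 with overlap.

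NRF2 targets stood lower in CD8kMup HCC in 25 of 30 members, with a median difference of -0.30, or -0.18 without MupHe HCC 3, and 6 did not overlap, against 3.56% of all genes that stood lower without overlap. Cbr1, a carbonyl reductase, stood at 11.51, 11.31 and 11.32 in CD8kMup HCC, against 12.01, 12.44, 11.52 and 11.85 in MupHe HCC. Gclm, the modifier subunit of glutamate-cysteine ligase, stood at 10.19, 10.46 and 10.53 in CD8kMup HCC, against 10.56, 11.10, 10.82 and 10.67 in MupHe HCC. Cbr3 and Nqo1, a quinone reductase, differed by -0.78 and -0.53 with overlap. Cell cycle genes stood lower in 26 of 28 members, with a median of -0.28, and 4 did not overlap. Mean deviations of that list overlapped, at 0.001, -0.42 and -0.10 in CD8kMup HCC, against -0.13 to 0.31 in MupHe HCC. Its median in NC livers lay the other way, at 0.37. Mcm4, of the replicative helicase, stood at 6.35, 5.93 and 6.28 in CD8kMup HCC, against 6.87, 6.74, 6.57 and 6.64 in MupHe HCC. Foxm1, a transcription factor of mitotic genes, stood at 4.66, 4.12 and 4.42 in CD8kMup HCC, against 4.85, 4.78, 5.43 and 5.09 in MupHe HCC. Mcm3 and Mcm6 differed by -0.52 and -0.88, Mcm6 with overlap. Mcm10, higher in CD8kMup HCC, goes against that direction. It averaged 7.77 in CD8kMup HCC and 6.80 in MupHe HCC, below CD8kMup NC (9.47) and MupHe NC (8.94). Mcm4, in contrast, averaged 6.19 and 6.70 in these tumours, above 5.93 and 5.63 in these NC livers. Whether Mcm10 follows cell division here was not tested. Oncofetal tumour markers had a median of -0.60 over 22 members, and only Akr1c18, a steroid dehydrogenase, did not overlap with all 7 libraries in, at 4.80, 4.35 and 3.29 in CD8kMup HCC, against 6.30, 5.59, 6.37 and 6.93 in MupHe HCC. Igf2, Meg3 and Golm1 differed by -2.74 ± 1.63, -1.32 ± 0.91 and -0.69 ± 0.38, with overlap. Without MupHe HCC 3, 3 of the 22 stood lower without overlap, Golm1 among them, and 1 stood higher. The shares over all genes without that library were 7.24% lower and 6.43% higher. Among matrix genes, Col4a1, a basement membrane collagen, stood at 9.89, 9.88 and 9.80 in CD8kMup HCC, against 10.91, 10.72, 10.37 and 11.31 in MupHe HCC, and Col4a2 differed by -0.78 ± 0.30 with overlap. Over 23 stellate cell and matrix genes the median was -0.12, or -0.012 without MupHe HCC 3. Lrat and Dcn differed by 0.58 and 0.71, Dcn without overlap, and Lrat by 0.25 without MupHe HCC 3.

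T cell and cytotoxic lymphocyte transcripts were low in both tumour groups. Of 20 CD8 and cytotoxic markers, 4 passed the filter on low values, which were Cd8a, Ccl5, Nkg7 and Klrk1, and their median difference was -0.14, or -0.06 without MupHe HCC 3. Ccl5, a T cell chemokine, differed by -0.47 ± 0.34, or -0.20 without MupHe HCC 3, and Klrk1, the NKG2D receptor, by 0.13 ± 0.22. Of the T cell list, 10 were kept, all 10 stood lower in CD8kMup HCC, and the median was -0.20. It was -0.0038 without MupHe HCC 3, whose mean deviation of 0.56 was the highest. Cd247, a T cell receptor signalling chain, was the 1 that did not overlap, at -0.31 ± 0.25 (3.56% of all genes stood lower without overlap). Thy1, Cd3d and Cd3g differed by -0.30, -0.25 and -0.25, and by -0.041, -0.13 and 0.0028 without MupHe HCC 3. In the immune checkpoint list, 14 of 21 genes were kept, with a median of -0.01, or 0.07 without MupHe HCC 3. Tox, a transcription factor of exhausted T cells, stood at 4.92, 5.79 and 5.15 in CD8kMup HCC, against 4.84, 4.22, 4.62 and 3.97 in MupHe HCC, a difference of 0.87 ± 0.27 with no overlap. In livers without tumours Tox averaged 5.30 in CD8kMup NC, 4.77 in MupHe NC and 5.25 in MupHe NASH. Which cells carry this transcript was not tested. Vtcn1, Lgals9 and Cd276 differed by -0.57, 0.26 and -0.30 with overlap, and Lgals9 by 0.12 without MupHe HCC 3. Class I MHC and immunoproteasome genes had a median of 0.02, class II MHC genes -0.30, or -0.02 without MupHe HCC 3, and type I interferon genes -0.04.

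The other tumour group, IgAkMup HCC, was set against the same 3 CD8kMup libraries, so its values are given side by side only. In CD8kMup HCC minus IgAkMup HCC, 0 of 12434 genes had an adjusted p under 0.05, and 2416 (19.4%) had an unadjusted p under 0.05, 1227 higher (9.87%) and 1189 lower (9.56%). The count of 0 was 328 (210 higher and 118 lower) when only these 2 groups were fitted, and 13 without CD8kMup HCC 3. The median MUP difference against IgAkMup HCC was 1.71, of P450 genes 1.82, of Kupffer cell genes 0.65 and of NRF2 targets 0.27, the last above 0 and that against MupHe HCC below it. Mfsd2a averaged 8.51 ± 0.29 in CD8kMup HCC and 5.27 in IgAkMup HCC.

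In NC livers, CD8kMup against MupHe gave 6 of 12279 genes with an adjusted p under 0.05 in limma (0.0489%), 2 higher (0.0163%) and 4 lower (0.0326%). An unadjusted p under 0.05 was found for 1081 genes (8.8%), 588 higher (4.79%) and 493 lower (4.01%). Cyp2c37 (0.68) and Nt5c3 (0.64) stood higher in CD8kMup NC, and Neat1 (-0.94), Nnt (-0.67), Hist1h1c (-0.71) and Srp68 (-0.46) lower. In tumours Cyp2c37 and Nt5c3 differed by 2.33 and 0.44, and Neat1 and Nnt, a mitochondrial transhydrogenase that some C57BL/6 substrains lack, differed by -0.69 and -0.62. Hist1h1c and Srp68 differed by -0.49 and 0.017 there, and Srp68 by 0.088 without MupHe HCC 3. Of the 6, Nt5c3 was the 1 that did not overlap in tumours, where 6.92% of all genes did not overlap. Across the 12198 genes kept in both, the tumour and NC differences had r = 0.04, and 6151 genes had the same sign. Of the 24 leading tumour genes, 8 of the 12 higher and 7 of the 12 lower had the same sign in NC livers.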

How the data were processed

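RNA was extracted with AllPrep columns, for some livers with Trizol and then RNeasy columns, and TruSeq Stranded mRNA libraries were prepared from 100 ng, per the labels' protocols. STAR and Cuffdiff are named for 29 samples and STAR, HOMER and DESeq2 for 12, all with mm10, per the submitters' processing notes, with no version or role stated. The authors deposited regularized log2 values in 1 table of 24511 genes and 41 columns. Columns were matched to groups by name, 35 were used, and 6 whose names fit CD8kMup NASH as well as CD8kCLM HFD control were not. Tumour columns matched a group only, so a library carries the number that ends its column name. NC columns matched single samples. No counts were used, so depth is unknown and no interval can be given.

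Genes with a mean of at least 3 were kept. limma 3.58.1 in R 4.3.3 was fitted with a mean per group, eBayes with trend and Benjamini-Hochberg adjustment at 0.05, two-sided, on the 3 tumour groups for the main comparison, the 4 NC groups for NC livers, and the 4 CD8kMup and MupHe groups for the difference of differences. The script was tested on simulated data. Exact permutation tests were used for Cd8a, Cd8b1 and Plau. No gene passed, so the rule for named genes gave the 12 of smallest p in each direction, leaving out predicted genes, and up to 4 members of smallest p of each list described. Genes outside this rule (Alb, Afp, Clec4f, Cd163, C6, Vsig4, Cd5l, Cdh5, Slc40a1, Spp1, Smyd1, Mup2, Mup3, Mup10, Mup15, Mup19, Cyp1a1, Cyp1a2, Cyp2a5 and the 6 of NC livers) were chosen after their values were seen. The members and lists were chosen with earlier results of these data known. Lists are described by counts and medians beside those of all kept genes. Groups do not overlap where every value of one lies beyond every value of the other. Promoter sequences are from RefSeq (GRCm38.p6) and gene positions from GENCODE on GRCm38, the build of mm10. Alternatives were other filters, scalings, sample sets, weights, a replicate block and leaving out each library.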

Additional observations from a re-analysis of the deposited data

Results flagged for a closer look

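In MupHe HCC, the group of 4 libraries, 1 library stood far from the other 3 for 8 of 90 genes looked at, with a gap to the next library that made up most of the group's range. Chance gives about 1 in 20 such groups. Upp2 was 5.66 in MupHe HCC 3, against 7.24 to 7.54 in the others. Thrsp was 6.07 in MupHe HCC 3, against 9.42 to 10.04. Cx3cr1 was 8.18 in MupHe HCC 3, against 6.59 to 6.67. Cyp2c54 was 7.51 in MupHe HCC 2, against 5.61 to 5.89, and Cyp2c50 was 9.22 there, against 7.13 to 7.45. Stk39 was 4.31 in MupHe HCC 4, against 4.58 to 4.63, and Cd276 was 6.02 there, against 6.91 to 7.00. Epb41l1 was 7.95 in MupHe HCC 7, against 7.37 to 7.39.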

How the results depend on the processing

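The count of 0 genes in CD8kMup HCC against MupHe HCC held with no filter on low values, a mean of at least 5, only the 2 groups, median centring, quantile normalization, array weights and robust eBayes. It was 163 with all 11 groups in 1 fit. Leaving out 1 library gave 0 to 5, the 5 without CD8kMup HCC 3. An alternative chosen after seeing the data left out MupHe HCC 3, IgAkMup HCC 5 and IgAkMup HCC 9 and gave 1 gene, Upp2 (adjusted p = 0.00551 in limma). In NC livers the count of 6 was 3 with the replicate block (Neat1, Nnt and Nt5c3) and ran from 0 to 55 when 1 library was left out. It was 55 without CD8kMup NC 1, 2 without CD8kMup NC 3, 1 without MupHe NC 3 and 0 without CD8kMup NC 4, MupHe NC 1 or MupHe NC 2. The block used the replicate numbers of the sample titles, in which CD8kMup NC 1, 3 and 4 are numbers 1, 2 and 3. NC libraries with the same title number did not deviate together (r = -0.01, 0.14 and -0.13), so the numbers do not pair them. By the numbers that end the column names, CD8kMup NC 3 and MupHe NC 3 had r = -0.077, and CD8kMup NC 4 had no partner. No paired analysis was possible because the tumour columns carry no replicate number of the labels, which also left the block of the difference of differences not run. That difference of differences ran from 0 to 11 calls with 1 library left out, with 11 without CD8kMup NC 1, Mup3 without CD8kMup HCC 3 and Cyp2c54 without MupHe HCC 2. Against IgAkMup HCC the count of 0 was 328 with only the 2 groups and 0 to 13 with 1 library left out, 13 without CD8kMup HCC 3. The cause of these changes was not tested. Leaving out 1 library moved Cd8a from -0.29 to 0.039 (the change of sign, 0.039, without CD8kMup HCC 3), Cd8b1 from -0.66 to -0.46 and Plau from -0.30 to 0.85. Cd3g ran from -0.38 to 0.0028 with 1 library left out, and was 0.0028 without MupHe HCC 3 and in the added alternative. Of 88 named genes, 33 had an adjusted p under 0.05 with all 11 groups in 1 fit, against 1.32% of all genes there. The named genes were picked by small p from the same tumour values, so this count is no further evidence. List medians moved by more than their spread in 10 of 751 list and setting pairs, among them the periportal list. Differences of weakly expressed genes are limited by shrinkage and by an unknown depth.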
